A study of Mus musculus with 2 samples.

Results

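The Ikaros family of zinc finger transcription factors has 5 genes, Ikzf1, Ikzf2, Ikzf3, Ikzf4 and Ikzf5, and all 5 were among the 30538 genes of the count table, from which they were taken by symbol. RNA sequencing was performed on splenic cells sorted as CD11b-positive, Ly6G-negative and Ly6C-low, which the labels name resident macrophages, 3 days after intravenous infection with 100000 *Listeria monocytogenes*. There were 2 libraries, 1 from infected C57BL/6 mice and 1 from infected Ch25h-/- mice, which lack the enzyme that makes 25-hydroxycholesterol. About 100000 cells were sorted, and the number of mice behind each library is not given in the sources used here. No uninfected mice were analysed here, so infection is shared by both groups.

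Ikaros factors are nuclear proteins with a DNA-binding block of zinc fingers near the N-terminus and a separate pair of fingers near the C-terminus, through which members pair with themselves and with each other. They recruit chromatin complexes such as NuRD and are best known as regulators of lymphocyte development. Ikzf1 encodes Ikaros, found in most blood lineages, and Ikzf3 encodes Aiolos, known from B cells and natural killer (NK) cells. Ikzf2 encodes Helios and Ikzf4 encodes Eos, both known from regulatory T cells. Ikzf5 encodes Pegasus, the most divergent member, which is broadly expressed.

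The kinship is visible in the coding sequence. The stretch below is the single-exon window of Ikzf1 whose best in-frame matches in the other 4 genes differed least, and it is shown because such similarity bears on how reads are assigned to members. It lies toward the end of each coding sequence, and capitals mark the 35 of 60 bases that are identical in all 5 members.
Ikzf1: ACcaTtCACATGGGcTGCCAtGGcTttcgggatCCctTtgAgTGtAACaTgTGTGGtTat
Ikzf2: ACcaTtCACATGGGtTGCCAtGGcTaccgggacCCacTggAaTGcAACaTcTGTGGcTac
Ikzf3: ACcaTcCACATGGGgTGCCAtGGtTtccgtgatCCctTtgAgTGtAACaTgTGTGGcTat
Ikzf4: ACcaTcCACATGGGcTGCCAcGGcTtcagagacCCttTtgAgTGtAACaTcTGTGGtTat
Ikzf5: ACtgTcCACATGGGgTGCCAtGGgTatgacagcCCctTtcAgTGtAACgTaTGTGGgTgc
Each is written 5′ to 3′ on the coding strand, from GENCODE M21 transcripts on GRCm38. The stretch of Ikzf1 lies at chr11:11769453-11769512 on the plus strand, in the last of 9 exons. That of Ikzf2 lies at chr1:69538831-69538890, that of Ikzf3 at chr11:98467055-98467114, that of Ikzf4 at chr10:128634111-128634170 and that of Ikzf5 at chr7:131391700-131391759, all on the minus strand and all coding. Against Ikzf1, Ikzf3 shared 54 of the 60 bases, Ikzf4 52, Ikzf2 48 and Ikzf5 42. Exact identity was nevertheless short. The longest run shared by any pair of members, over all annotated transcripts, was 32 bases between Ikzf2 and Ikzf4, and between Ikzf1 and Ikzf3 it was 26 bases. The read length and the handling of reads that match several places are not given in the sources used here.

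Gene counts totalled 16957371 for C57BL/6 and 15986392 for Ch25h-/-. Levels are given as CPM, a count relative to its library's total after scaling by the trimmed mean of M-values (TMM). Each genotype is a single library, so no replicate spread and no p-value can be given. The 95% intervals are exact and hold counting error alone. Genes at 1 CPM or more on average, 11972 in all, are called measured. A measured gene was called when its ratio reached 2-fold with an interval clear of 1, which held for 5.77% of measured genes in the lower and 2.07% in the higher direction, always given as Ch25h-/- relative to C57BL/6. The family was selected on these same genotype ratios of its members, so their genotype values are a description and support nothing further. The targeted gene Ch25h had 3 counts in the C57BL/6 library and 0 in the Ch25h-/- library, too few to check the labels. Where pairs of values follow, C57BL/6 comes first. Red pulp macrophage markers summed to 299 and 183 CPM, with Adgre1, the F4/80 antigen, at 39.7 and 23.4 CPM. NK cell markers summed to 13507 and 21748 CPM, mostly from the granule genes Gzmb, Gzma and Prf1, with Ncr1 at 156 and 429 CPM. The sort therefore held transcripts of cells other than macrophages in both libraries, and in such bulk samples fewer cells of a type and less RNA per cell cannot be told apart.

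Ikzf4 was the single member that was called, and it was lower in the Ch25h-/- library. Its gene (ENSMUSG00000002578) occupies chromosome 10, 128630843 to 128645991, on the minus strand. It had 566 counts, or 33.1 CPM (interval 30.4 to 35.9), in the C57BL/6 library and 60 counts, or 3.79 CPM (2.89 to 4.87), in the Ch25h-/- library. The Ch25h-/- level was thus 8.73-fold lower (interval 6.68 to 11.6), a log2 ratio of -3.13 (-3.54 to -2.74). By that ratio Ikzf4 ranked 24 from the lowest of 11972 measured genes, and 4 from the lowest of the 8926 genes that averaged 10 CPM or more. Read against the 5.77% of all genes called lower, 1 of 5 members is a small count, and nothing about the family as a whole is drawn from it.

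The other 4 members had log2 ratios from 0.19 to 0.49, none of them called. Ikzf1 (ENSMUSG00000018654, chromosome 11, 11685003 to 11772926, plus strand) had 11956 counts, or 699 CPM, in the C57BL/6 library and 13299 counts, or 839 CPM, in the Ch25h-/- library. Its log2 ratio was 0.26 (interval 0.23 to 0.30). Ikzf3 (ENSMUSG00000018168, chromosome 11, 98464902 to 98546031, minus strand) had 4872 counts, or 285 CPM, and 6140 counts, or 388 CPM, for a log2 ratio of 0.44 (0.39 to 0.50). Both of these abundant members were thus somewhat above their C57BL/6 level in the Ch25h-/- library, by more than counting error and by far less than 2-fold.

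The 2 less abundant members showed the same pattern of modest values. Ikzf2 (ENSMUSG00000025997, chromosome 1, 69531214 to 69687245, minus strand) had 523 counts, or 30.6 CPM, in the C57BL/6 library and 678 counts, or 42.8 CPM, in the Ch25h-/- library, with a log2 ratio of 0.49 (0.32 to 0.65). Ikzf5 (ENSMUSG00000040167, chromosome 7, 131388652 to 131410521, minus strand) had 497 counts, or 29.0 CPM, and 525 counts, or 33.1 CPM, with a log2 ratio of 0.19 (0.01 to 0.37). The lower bound for Ikzf5 lay just above 0, and with scaling by total counts its interval held 0. Among all measured genes the interquartile range of log2 ratios ran from -0.26 to 0.25, around a median of 0.01. Ikzf5 lay within that range and Ikzf1 just above it. Of measured genes, 87.9% had a lower ratio than Ikzf3 and 89.5% a lower ratio than Ikzf2.

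**Figure D1:**
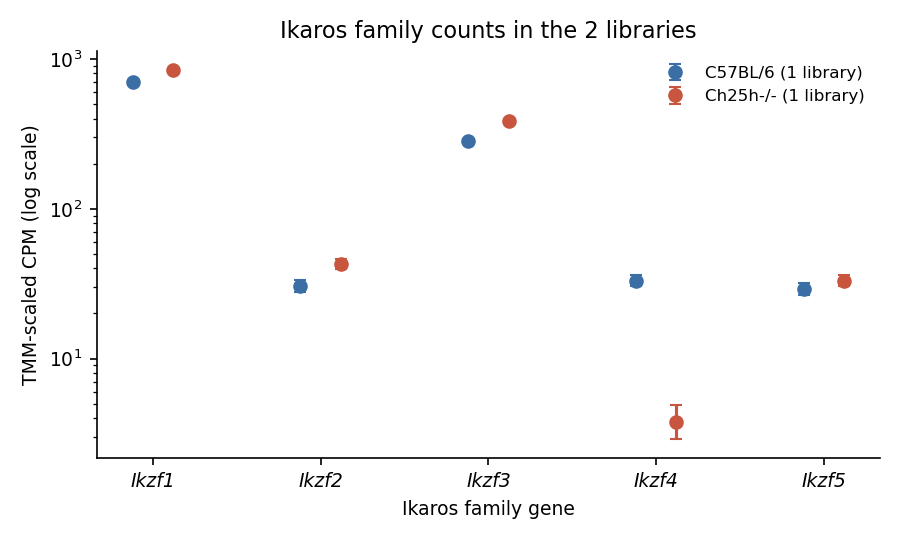
TMM-scaled CPM of the 5 Ikaros family genes (log axis) in the C57BL/6 and the Ch25h-/- library, 1 library each; bars are exact 95% Poisson intervals of the count. Ikzf4 drops from 33.1 to 3.79 CPM, while the other 4 genes lie slightly higher in the Ch25h-/- library.

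**Figure D2:**
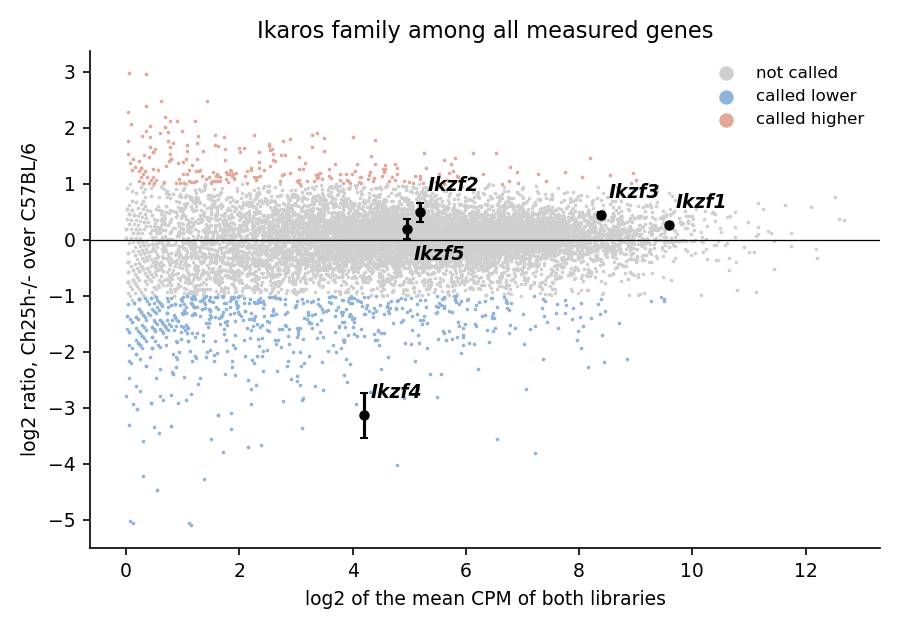
Log2 ratio of Ch25h-/- over C57BL/6 against the log2 of the mean CPM for all 11972 measured genes, with the 5 family genes in black and their exact 95% counting intervals. Ikzf4, at -3.13, lies far under most genes of its level, and the other members lie in the main cloud.

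Ratios between members do not depend on how the libraries were scaled. In the C57BL/6 library Ikzf4 and Ikzf2 had nearly equal counts, with 1.08 counts of Ikzf4 for each count of Ikzf2. In the Ch25h-/- library there were 0.0885 counts of Ikzf4 for each count of Ikzf2, a log2 ratio of ratios of -3.61 (exact conditional interval -4.05 to -3.19). Across the 4 pairs that contain Ikzf4 the ratio of ratios was 3.31 to 3.61 in size on the log2 scale, and across the other 6 pairs it was 0.04 to 0.30. Ikzf3 stood 0.18 (0.11 to 0.25) further up than Ikzf1 on that scale, and between Ikzf3 and Ikzf2 the interval held 0 (-0.22 to 0.13). Ikzf4 took 3.07% of the family's counts (exact binomial interval 2.83 to 3.33%) in the C57BL/6 library and 0.290% (0.221 to 0.373%) in the Ch25h-/- library. Ikzf1 took 64.9% and 64.2%, and Ikzf3 26.5% and 29.7%. The 5 members summed to 1076 and 1307 CPM.

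Levels of different genes were compared per kilobase of exon (the union of all annotated exons). In the C57BL/6 library Ikzf1 stood highest at 121 CPM per kb, followed by Ikzf3 at 32.5, Ikzf4 at 5.52 (interval 5.07 to 5.99), Ikzf5 at 5.08 (4.64 to 5.54) and Ikzf2 at 2.63. The intervals of Ikzf4 and Ikzf5 overlapped, and all other neighbours in that order were apart by more than counting error. In the Ch25h-/- library the order was Ikzf1 at 145 CPM per kb, Ikzf3 at 44.3, Ikzf5 at 5.79, Ikzf2 at 3.69 and Ikzf4 at 0.632 (0.482 to 0.813). By this length Ikaros was thus the most abundant family transcript and Aiolos came next in both libraries. Eos moved from the middle group to the last place. Over exon bases shared with no other gene, Ikzf5 (32.8) and Ikzf3 (32.5) had overlapping intervals in the C57BL/6 library. The place of Ikzf4 in the C57BL/6 library depends on the length used, since per kilobase of coding sequence Ikzf4 (16.1) stood under Ikzf5 (23.1) and Ikzf2 (19.2). In the Ch25h-/- library it was last with each of the 4 lengths tried.

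**Figure D3:**
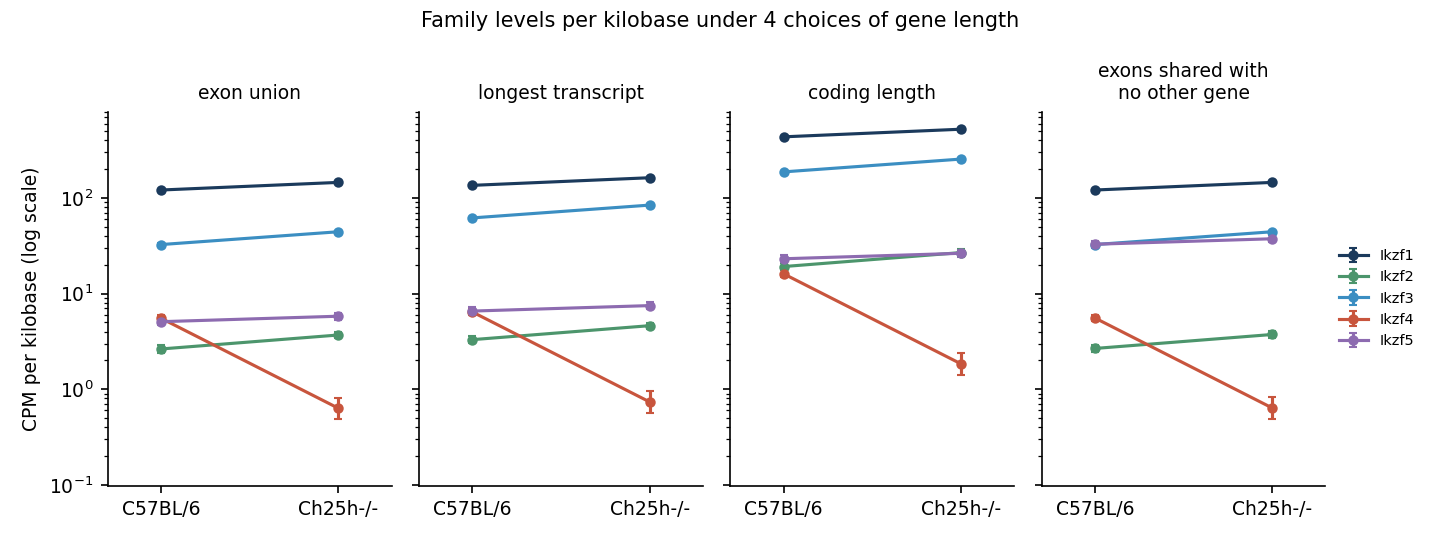
CPM per kilobase (log axis) of the 5 family genes in the 2 libraries, 1 panel for each of 4 gene lengths; bars are exact 95% Poisson intervals. Ikzf1 is highest in every panel and Ikzf4 is lowest in the Ch25h-/- library in every panel.

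Overlap with other genes differed widely between the members. The strand setting of the counting is not given in the sources used here. Ikzf4 shares 37 bases of its 5995 exon bases with a noncoding gene on the opposite strand, Gm26876, which had 1 count in the C57BL/6 library and 0 in the Ch25h-/- library. Ikzf5 shares far more, 4835 of 5721 exon bases, most of them with the selenocysteine pathway gene Pstk on the opposite strand. Pstk had 95 counts and 101 counts, with a log2 ratio of 0.20 (-0.22 to 0.62), close to that of Ikzf5. Had all its reads come from the 886 bases that Ikzf5 does not share, its C57BL/6 level would be 32.8 CPM per kb, beside 32.5 for Ikzf3, so the level of Ikzf5 per length is uncertain. Ikzf1 and Ikzf3 share no exon bases with another annotated gene, and Ikzf2 shares 144 of 11613.

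The low Ikzf4 count was not shared by the genes around it. Of the genes within 100 kb of Ikzf4, 11 had a count and 9 were measured, and none of these was called. Their log2 ratios ran from -0.45 for the ribosomal protein gene Rps26, the nearest of them at 4096 bases, to 0.31 for the receptor gene Erbb3. Rab5b (-0.03), Suox (-0.02), Cdk2 (0.17), Dgka (0.01) and Pa2g4 (0.27) lay near 0, Rpl41 stood at -0.28 and Zc3h10 at -0.43. Around Ikzf3, 7 measured neighbours ran from -0.15 (Pgap3) to 0.32 (Mien1), with Ormdl3 at 0.30, Grb7 at 0.29, Zpbp2 at 0.27, Gm12355 at 0.19 and Stard3 at 0.04. Around Ikzf5, Acadsb stood at 0.06, 2310057M21Rik at -0.04 and Pstk at 0.20. The only measured gene within 100 kb of Ikzf1, the DNA repair gene Fignl1, was called higher, with 14.3 and 32.9 CPM and a log2 ratio of 1.21 (0.99 to 1.43), and no gene with a count lay that close to Ikzf2.

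**Figure D4:**
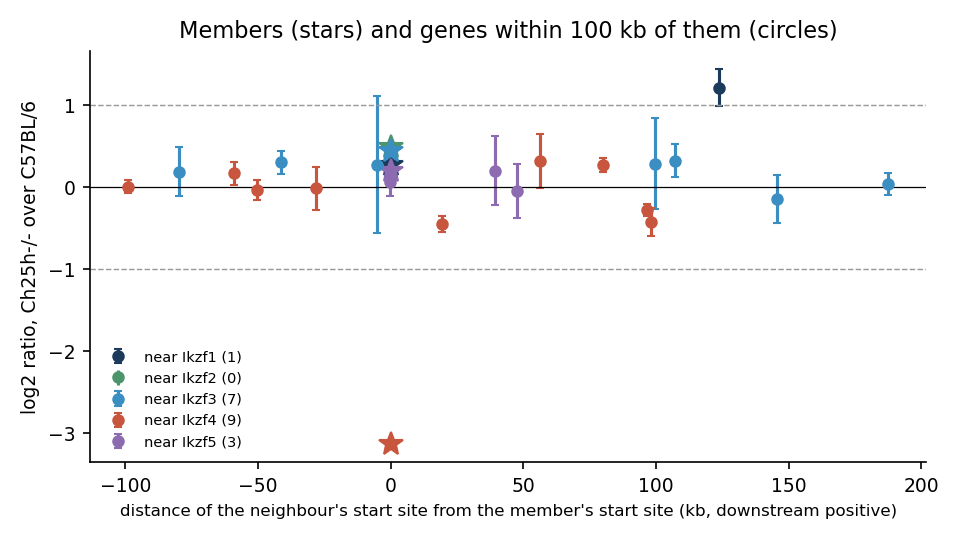
Log2 ratio of Ch25h-/- over C57BL/6 for the family genes (stars, at 0 kb) and the 20 measured genes whose nearer end lies within 100 kb of a member (circles, with exact 95% counting intervals), by the distance between start sites in kb, which can exceed 100 kb. Ikzf4 lies at -3.13 while its 9 neighbours lie between -0.45 and 0.31.

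The genes whose genotype ratio was nearest to that of Ikzf4, among those same 8926 genes, were Sphk1, Slc7a2 and Dll4. Likeness here is the difference in log2 ratio over only 2 libraries, so it says no more than that these genes had a similarly low ratio. Sphk1, a kinase that makes sphingosine-1-phosphate, went from 29.3 to 3.85 CPM (log2 ratio -2.93, 0.20 from Ikzf4). Slc7a2, an arginine transporter, went from 52.7 to 7.39 CPM (-2.83), and Dll4, a Notch ligand, from 79.1 to 11.2 CPM (-2.82).

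Markers of mature and conventional dendritic cells and of macrophages were lower alongside Ikzf4. So were those of plasma cells (median -1.28) and B cells (median -0.68), which are described further on. Mature dendritic cell markers were lower as a list, with 12 of 16 called lower, a median log2 ratio of -1.46 against 0.01 over all measured genes, and summed levels of 3397 and 1272 CPM. The lowest of that list were the chemokine gene Ccl22 (-2.30), Il4i1 (-2.14), Fscn1 (-2.13) and Ccr7 (-1.93), so each of its genes lay closer to 0 than Ikzf4. For every 1000 counts of these markers there were 9.74 counts of Ikzf4 in the C57BL/6 library and 2.98 in the Ch25h-/- library, a log2 change of -1.71 (interval -2.09 to -1.32). Conventional dendritic cell markers had 5 of 8 measured genes called lower, with summed levels of 635 and 326 CPM. Against them the log2 change of Ikzf4 was -2.17. The lowest gene of that list, Esam (-2.66, -3.42 to -1.98), had an interval that overlapped that of Ikzf4. No marker of either list was at 0 in both libraries. Below the level for measured genes were Xcr1 (0 and 6 counts), Clec9a (5 and 13 counts) and Cd209a (11 and 5 counts), all of the conventional list. Red pulp macrophage markers had 3 of 9 called lower (C1qa -1.40, Cd163 -1.33 and Spic -1.17), 8 of 9 under 0 and a median of -0.76. Marginal zone macrophage markers had 2 of 5 measured genes called lower (Marco -1.56 and Siglec1 -1.08), a median of -0.87 and summed levels of 114 and 64.5 CPM, and their marker Cd209b was at 0 in both libraries. These values per marker count restate the Ikzf4 ratio against each list's summed ratio, and no list sum was as low as Ikzf4 (the lowest was -1.42, for mature dendritic cells), so their sign was fixed by the choice of Ikzf4. The part of cell composition in the Ikzf4 value was not tested.

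Among markers of regulatory T cells, where Eos is best known, the defining factor Foxp3 stood at 3.39 and 4.61 CPM. The receptor genes of that list, which other activated lymphocytes also express, were more abundant, with Il2ra at 529 and 569 CPM, Ctla4 at 166 and 159 CPM and Tnfrsf18 at 41.4 CPM in C57BL/6 (log2 ratio -0.20). None of its 5 measured markers was called, and the list summed to 757 and 779 CPM. Per 1000 counts of that list there were 43.7 counts of Ikzf4 in the C57BL/6 library and 4.86 in the Ch25h-/- library. The list of eosinophil, basophil and mast cell markers held a pair of genes with ratios under that of Ikzf4, the eosinophil granule genes Epx (6.08 against 0.442 CPM, -3.78) and Prg2 (9.64 against 0.757 CPM, -3.67). The other 9 genes of that list were not called. Its median was -0.08, and -0.60 among its genes of at least 5 CPM.

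Markers of lymphoid and myeloid cells stood on both sides of 0 beside Ikzf1, Ikzf2 and Ikzf3. NK cell markers were higher, with 3 of 13 called higher (Ncr1 1.46, Klre1 1.17 and Klrd1 1.04), a median of 0.75 and none under 0. Their summed counts were mostly those of the granule genes Gzmb (0.77), Gzma (0.58) and Prf1 (0.55), whose ratios lay under that of Ncr1. For every 1000 counts of NK cell markers there were 21.1 and 17.8 counts of Ikzf3, a log2 change of -0.24 (-0.30 to -0.19). Ikzf2 changed by -0.20 and Ikzf1 by -0.42 on that scale, so all 3 stood higher in CPM and lower per NK marker count. These values restate each member's ratio against the list's summed ratio of 0.69. B cell markers went the other way, with 2 of 12 called lower (Ebf1 and Fcrla, both -1.10), a median of -0.68 and summed levels of 1572 and 976 CPM. Per 1000 B cell marker counts Ikzf3 went from 181 to 397, a log2 change of 1.13, which again restates its ratio against the list's summed ratio (-0.69). T cell markers had no called gene of 11, 6 of 11 under 0 and a median of -0.10, with Tcf7 the lowest (-0.97). Their summed level, 338 and 436 CPM, was mostly the kinase gene Lck (186 and 320 CPM, 0.78), while Cd3e of the T cell receptor complex stood at 6.49 and 7.51 CPM. Plasma cell markers had 5 of 7 called lower and a median of -1.28.

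Of the myeloid lists, those of neutrophils and Ly6C-high monocytes also stood higher beside these 3 members. Neutrophil markers had 5 of 12 called higher, a median of 0.87 and summed levels of 1217 and 2135 CPM, in cells sorted as Ly6G-negative. The called genes were Ly6g itself (8 and 41 counts, 2.47), Mmp9 (1.18) and the granule genes Ltf (1.12), Camp (1.04) and Ngp (322 and 646 CPM). Other granule genes did not share this, with Elane at 0.16 and Mpo at -0.41, the 1 gene of 12 under 0. Ly6C-high monocyte markers had 2 of 5 called higher (Ccr2 1.19 and Vcan 1.02), a median of 0.75 and summed levels of 1346 and 2075 CPM, in cells sorted as Ly6C-low. Ly6C-low monocyte markers had 1 of 7 called, Fcgr4 (-1.13), with a median of -0.25 and summed levels of 2365 and 2862 CPM. That sum was mostly Itgal (1341 and 1784 CPM) and Spn (471 and 676 CPM). Plasmacytoid dendritic cell markers had no called gene of 5 measured and a median of -0.40, with Siglech at 0 in both libraries. Of the erythroid and megakaryocyte list 1 of 7 genes was measured, Itga2b (-0.64). The part of all these cells in the values of Ikzf1, Ikzf2, Ikzf3 and Ikzf5 was not tested.

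The partners of Ikaros proteins differed little. NuRD is the nucleosome remodelling and deacetylase complex, and all 13 of its listed genes were measured and none called, with a median log2 ratio of 0.10 and a range of -0.33 (Gatad2b) to 0.33 (Rbbp4). Its remodelling ATPase gene Chd4 was the most abundant of them, at 816 and 874 CPM. None of 8 SIN3 and CtBP corepressor genes was called (median 0.06, Sin3b at -0.27), and none of 10 genes of the SWI/SNF remodelling complex (median 0.02, Smarca4 at 0.01). The cereblon ubiquitin ligase, through which thalidomide-type drugs degrade Ikaros and Aiolos, had no called gene of 5, with Crbn at 33.9 and 32.6 CPM and Cul4b at 0.40. Of 8 kinase and phosphatase genes that act on Ikaros none was called, though the tyrosine kinase genes Btk (-0.85) and Syk (-0.72, 982 against 596 CPM) stood apart from the casein kinase 2 gene Csnk2a1 (0.23) and the phosphatase gene Ppp1cb (0.50). Together 0 of these 44 genes were called, beside 7.84% of all measured genes in either direction.

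Genes reported in lymphocytes or macrophages as regulated by Ikaros factors split by direction. Of 20 listed genes, 13 were measured, 2 were called lower and none higher, beside 5.77% lower and 2.07% higher of all measured genes. Nothing is drawn from so small a count. Irf4, a factor of dendritic and plasma cells, went from 132 to 37.2 CPM (-1.83), and the cytokine receptor gene Il7r from 137 to 67.2 CPM (-1.03). Tbx21, the gene of T-bet, stood at 0.84, Ifng at 0.49 (1094 and 1540 CPM), Il10 at 0.52 and Cdk6 at 0.47. Blnk (-0.82), the nitric oxide synthase gene Nos2 (-0.62) and Cd79b (-0.61) lay on the other side, and Myc stood at 0.16. The median of the 13 was -0.41, and it was -0.00 when genes with at least 1 count in all were let in. That second value depends on the floor set for a count of 0. The floor gave Ptcra (1 and 0 counts) a log2 ratio of 1.70, although its count was lower in the Ch25h-/- library. The shift in the median is therefore not read as an effect of letting these genes in. The early lymphocyte genes Dntt, Igll1, Vpreb1, Rag1 and Ptcra had at most 4 counts in either library, and Rag2 and Il2 had 0 in both. Some of these genes also stand on the cell type lists, Irf4 on that of plasma cells, Cd79b on that of B cells and Tbx21 on that of NK cells. Each had the sign of its list's median, but it is itself a gene of that list, so nothing is drawn from the shared sign.

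**Figure D5:**
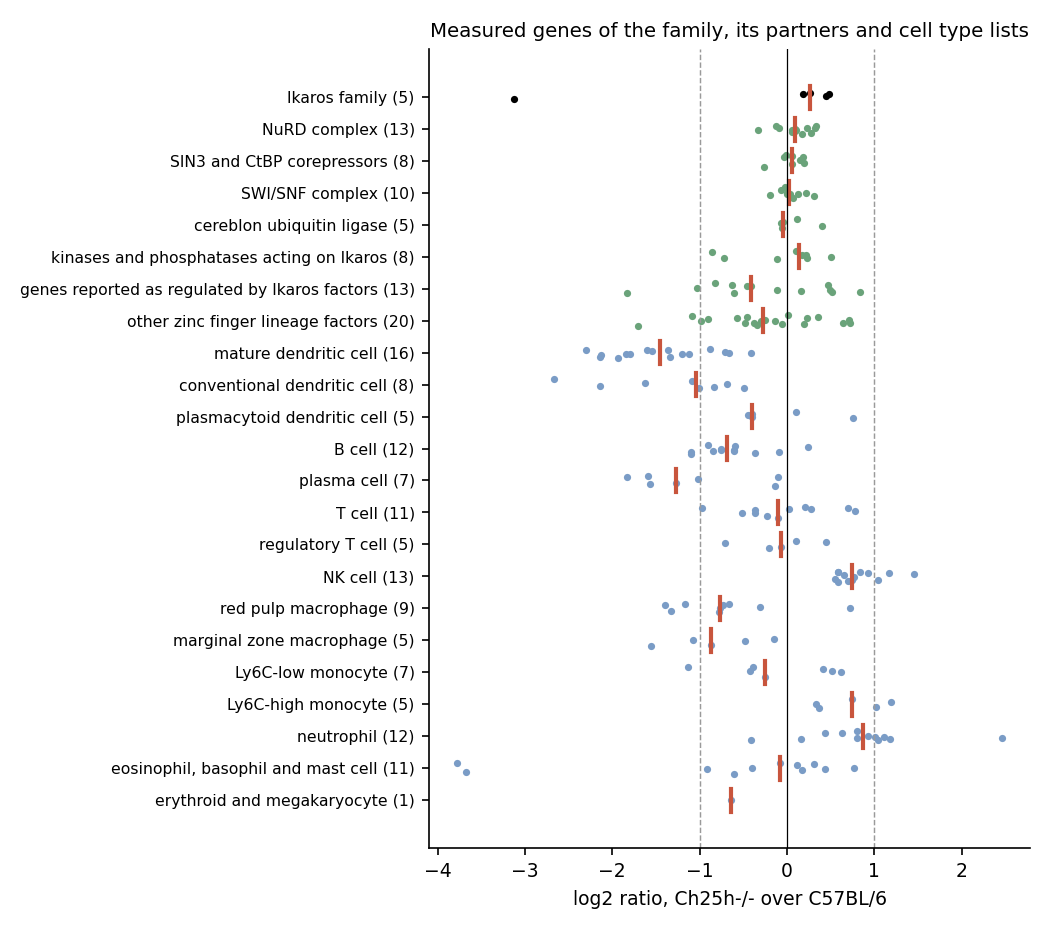
Log2 ratio of Ch25h-/- over C57BL/6 for each measured gene (points) of the family, its partners, reported targets and cell type lists, with the number of measured genes in brackets and the list median as a red line; dashed lines mark 2-fold. Ikzf4, at -3.13, lies beyond every gene of the partner lists and of the dendritic cell lists.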

How the data were processed

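The authors deposited whole read counts per gene, 1 column per library, which were used unchanged. The labels' protocols name TRIzol for the RNA and a KAPA RNA HyperPrep kit. Per the submitters' processing notes, the tools were GSNAP, featureCounts (Subread 1.5.2), FastQC 0.11.9 and edgeR 3.26.8, on GRCm38 (mm10).

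Scaling used the TMM factors of edgeR 4.0.16 in R 4.3.3 (C57BL/6 1.01, Ch25h-/- 0.991). Ratios had no prior count, and a count of 0 was set to a floor of 3 counts. Intervals came from scipy 1.17.1: Clopper-Pearson for ratios and shares, Poisson for levels, and an approximation on the log scale for members against summed markers. The sources used here name no molecular identifiers, so reads may not be independent molecules and intervals reflect counting error alone. GENCODE M21 (GRCm38) gave positions and lengths for 30126 of the 30538 IDs, and transcript sequences for the 5 members. Listed genes were found by symbol, 3 of them by ID. Ratios, their intervals and calls were tested on simulated counts, with the scaling factors of the real libraries. The other steps were not tested in that way.

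The members and lists were chosen with earlier results of these data known. The rule for named genes takes the members, genes with a count within 100 kb, the 3 genes nearest in ratio to a called member, and each list's 4 largest ratios in size and most abundant gene. Not all are printed, and genes beyond it were picked after their values were seen. Alternatives covered 4 scalings (DESeq2 1.42.0, totals, upper quartile, and TMM leaving out 36 genes such as haemoglobins), 2 expression filters, a prior count, a stricter call and gene length.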

Additional observations from a re-analysis of the deposited data

How the results depend on the processing

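Under 4 other scalings and a prior count of 2, the log2 ratio of Ikzf4 ran from -3.15 to -3.09, that of Ikzf1 from 0.24 to 0.28, Ikzf2 from 0.46 to 0.50, Ikzf3 from 0.42 to 0.46 and Ikzf5 from 0.16 to 0.20. All 25 of these values lay within their counting intervals. Under each of the 8 alternatives for calls, 1 member (Ikzf4) was called lower and 0 higher. Calls over all genes numbered 691 lower and 248 higher. They came to 347 lower with 120 higher among genes of at least 5 CPM, and to 318 lower with 67 higher where the whole interval had to pass 2-fold. Letting in every gene with a count raised the lower calls to 1031 and the higher calls to 435. The number of genes tested differs between these filters, so the counts are not shares. Of 132 list medians recomputed, 130 stayed within the median counting interval of their genes. The exceptions, both without a filter, were the reported Ikaros targets (-0.41 to -0.00) and the plasmacytoid dendritic cell list (-0.40 to 0.11). Both then held genes in which a 0 was set to the floor of 3 counts. Ptcra (1 and 0 counts) was given 1.70 and Klk1 (3 and 0 counts) 0.11, although both were lower in the Ch25h-/- library. These shifts are therefore not read as effects of the filter. A median could also move far inside a wide interval. That of eosinophil, basophil and mast cell markers went from -0.08 to -0.60 among genes of at least 5 CPM, inside -0.69 to 0.58. The length over unshared exon bases was added after the overlap of Ikzf5 was seen. No paired analysis was possible because each genotype has 1 library. With 60 counts of Ikzf4 in the Ch25h-/- library, counting error alone leaves its ratio between 6.68-fold and 11.6-fold lower, and variation between mice, sorts and library preparations is not measured.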

Other observations

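Other zinc finger factors of blood lineages gave a scale for the family. Of 21 listed, 20 were measured, with a median log2 ratio of -0.28 and 13 of 20 under 0. Among the 20, 2 were called lower and none higher, beside 5.77% lower and 2.07% higher of all measured genes. Nothing is drawn from so small a count. The called genes were Klf4, a factor of monocytes (94.7 CPM for C57BL/6, 29.0 CPM for Ch25h-/-, -1.71), and Zbtb46, a factor of conventional dendritic cells (75.9 and 35.8 CPM, -1.08). Klf6, the most abundant, stood at -0.99 (699 and 353 CPM) and Klf2 at -0.91. On the other side lay Bcl11b (3.68 and 6.06 CPM, 0.72), Zbtb32 (252 and 414 CPM, 0.72) and Gfi1 (0.64). None of the 20 had a ratio as low as that of Ikzf4, and the list was not tested against the family.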
